A study of Homo sapiens with 12 samples.

Results

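A pair of numbered Dicer mutants was set against each other here by the messenger RNA of the cells that received them. MDA-MB-231 cells, a triple-negative and mesenchymal-like human breast cancer line, were transfected with a plasmid for Dicer mutation 1 (3 libraries) or Dicer mutation 3 (3 libraries) using lipofectamine 3000, and these 6 of the 12 libraries were chosen by their treatment label alone. The labels number the mutations without naming the residues, and name no change to the cells' own DICER1 gene. The other 6 libraries came from the same line with a wild-type Dicer plasmid (3) or with mutation 2 (3). All groups share the line, the medium (DMEM with serum), the transfection reagent and poly(A)-selected libraries. Whether the 3 libraries of a group were grown apart is not given in the labels, and p-values here reflect only how far these libraries scatter, which may be technical.

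Dicer is the cytoplasmic ribonuclease that cuts the hairpin precursors released by DROSHA and its partner DGCR8 into short microRNA duplexes. One strand is loaded into an Argonaute protein and guides it, through bases 2 to 8 of the microRNA (the seed), to matching sites in messenger RNAs, which are then repressed with the help of TNRC6 proteins and deadenylases. In breast cancer cells the let-7 and miR-200 families are known for holding back growth-promoting and mesenchymal genes.

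The 6 libraries held between 13761260 and 16455023 counted read pairs. Within a group the libraries differed little more than counting noise (chi-square per degree of freedom 1.289 to 2.025), while pairs across the groups gave 75.038 to 86.994. The line's defining markers were at high levels in both groups: VIM averaged 1429 ± 45.3 against 1137 ± 6.35 CPM (mutation 1 against mutation 3, mean ± SD, n = 3 each), and ESR1 and PGR had at most 10 counts in any library. CDH1, which this line is known to lack, was raised with mutation 1 and is described below. EPCAM, another marker taken to be at or near 0 in this line, was present in both groups. It had 368, 485 and 417 counts with mutation 1 and 243, 295 and 273 with mutation 3. Of 35 markers of other cell types, 9 were at 0 in all 6 libraries, among them CD3E and HBB, and the summed level of the list was 135.4 to 148.6 CPM (counts scaled to library size) with mutation 1 and 61.74 to 68.73 CPM with mutation 3. The larger part of that sum was PDGFRB, at 74.7 ± 4.5 against 21.5 ± 1.02 CPM, COL1A1 and CD14, and its part in the results below was not tested.

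With mutation 1 in place of mutation 3, 4979 genes were higher and 5094 lower among 14207 tested (edgeR quasi-likelihood test, Benjamini-Hochberg adjusted p under 0.05). Called genes were thus 70.9% of all, 35% in the higher and 35.9% in the lower direction. The libraries of a group lay close together (common biological coefficient of variation 2.39%), and a share of called genes near 70.9% in a list is not a result about that list. All counts of rises and falls below are to be read against 35% higher and 35.9% lower over all genes. Changes below are log2 fold changes, mutation 1 minus mutation 3, unless another unit is named. At least 2-fold differences were called for 2241 genes, 15.8% of those tested, of which 1057 (7.44%) were higher and 1184 (8.33%) lower with mutation 1. For 10248 genes (72.1%) every library of one mutant lay above every library of the other. The median log2 fold change was -0.01 and the quartiles were -0.41 and 0.34. The far tail leaned the other way from the counts of calls: 385 genes were at least 4-fold higher against 222 lower, and 180 were at least 8-fold higher against 56 lower. When all 12 libraries shared one fit, in which wild-type replicate 1 stood apart from its group, 6454 genes were called. Of 349 named genes called in the 6-library fit, 54 lost their call there, among them CEMIP (adjusted p = 0.0877), L1CAM (0.153), ENG (0.107), IL32 (0.191), JAG1 (0.0925), SPINT1 (0.0609), VIM (0.172), MT-ND4 (0.102) and MT-ND4L (0.256), all described below. The other genes described below that lost it had adjusted p of 0.0514 (ANKRD1) to 0.66 (ABCA1) and were BAG3, COL13A1, CTSK, DDX17, DICER1, DROSHA, ELF3, ESRP2, HLA-B, HMGA2, HSPD1, ITGA2, KRT18, MALAT1, MCM7, MIR4435-2HG, MIR924HG, MKI67, MMP14, PRKRA, TARBP2, ZEB1 and ZSWIM8. When the test asked for more than a fold of 1.5, 3016 were called. In 4 chromosome stretches, holding 3.65% of 10204 genes placed on the genome, neighbouring genes mostly moved one way. Of the genes described below, HDAC2 (chromosome 6), DDX28, PRMT7, PSMD7, NQO1, OSGIN1, NLRC5 and ESRP2 (chromosome 16) and SOX9, BRIP1, PSMD12, ERN1, DDX5, PSMC5, RPL38 and VMP1 (chromosome 17) fell inside stretches that were lower with mutation 1. PTMA, ACKR3 and DIS3L2 rose inside a higher stretch of chromosome 2, and CDH1, CDH11 and IRX3 rose inside the lower stretch of chromosome 16.

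**Figure D1:**
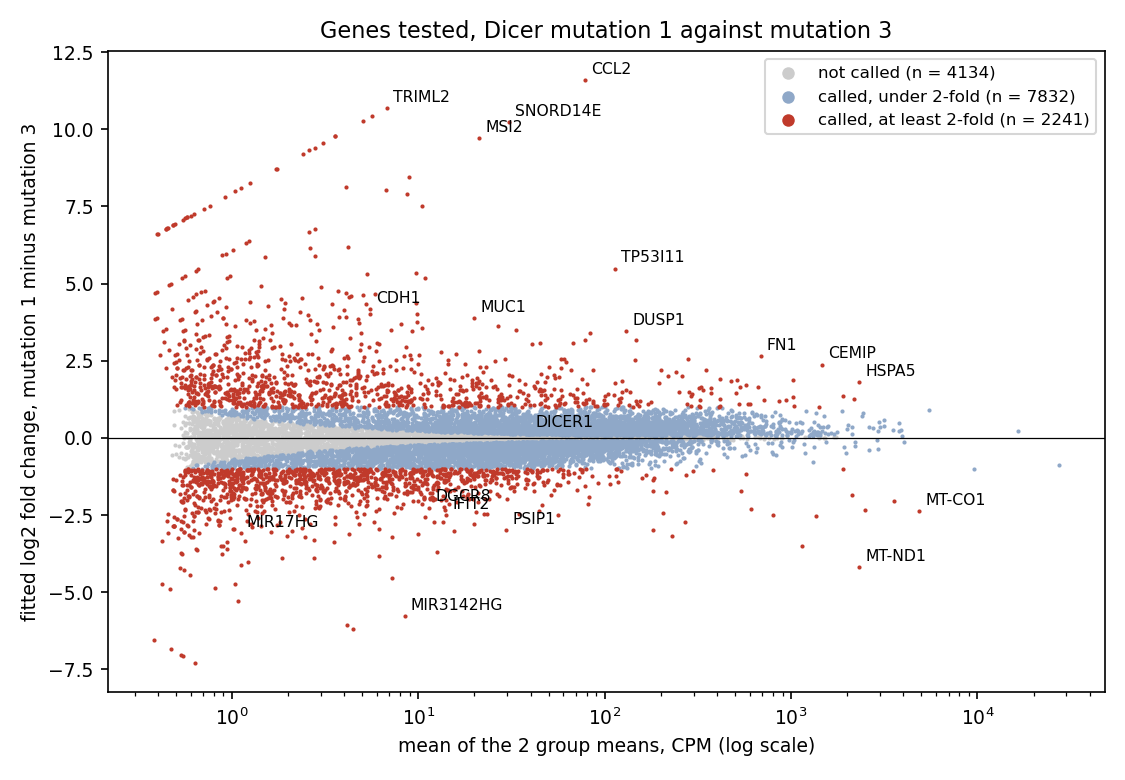
Each point is a tested gene, with the mean of the 2 group means in CPM on a log axis and the fitted log2 fold change (mutation 1 minus mutation 3) on the vertical axis. Grey points were not called, blue points were called under 2-fold and red points were called at 2-fold or more (2241 genes). The straight line of red points at the upper left, ending at TRIML2, holds genes with no count in mutation 3, whose fitted values depend on the prior count.

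DICER1 itself hardly differed between the mutants. Its level was 41, 39.8 and 42.6 CPM in the 3 mutation 1 libraries and 37.3, 36.8 and 37.9 CPM in the 3 mutation 3 libraries. The groups did not overlap, yet the log2 fold change was only 0.14 ± 0.057 (SE, adjusted p = 0.0253). The call was lost in 7 of 16 alternative analyses, among them DESeq2 (adjusted p = 0.0609) and the fits without mutation 1 replicate 3 (0.0888), mutation 3 replicate 1 (0.0565) or mutation 3 replicate 2 (0.0833). Counts over exons do not separate plasmid from chromosomal DICER1 transcripts, so these values do not check which plasmid a library received.

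The microRNA machinery, DICER1 included, split evenly, as all genes did: of 26 measured (of 28 listed), 11 rose, 11 fell and 4 were not called. Rises and falls were each 42.3%, against 35% and 35.9% over all genes, and the median was 0.01 against -0.01. DGCR8 was the single member that moved 2-fold or more. It stood at 4.17, 3.60 and 4.06 CPM with mutation 1 and at 18.2, 19.3 and 19.2 CPM with mutation 3, a log2 fold change of -2.26 ± 0.11 (SE, adjusted p = 4.25e-31). The 2 sets of libraries were far apart for this nuclear partner of DROSHA. DROSHA itself fell by 0.12 log2 units, and XPO5, which exports precursors to the cytoplasm, fell by 0.39 log2 units. The DROSHA call was lost without mutation 1 replicate 1 (adjusted p = 0.0576), mutation 1 replicate 2 (0.095) or mutation 3 replicate 1 (0.0988). That of the RNA helicase DDX17 (log2 fold change -0.08) was lost without mutation 1 replicate 1 (0.0973) or 3 (0.106), or mutation 3 replicate 2 (0.11) or 3 (0.129). The call of PRKRA, a Dicer partner (log2 fold change 0.17), was lost without mutation 1 replicate 2 (0.13) and without mutation 3 replicate 2 (0.0736).

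Among the effectors, AGO2, the Argonaute that can slice its targets, rose by 0.84 ± 0.058 on the log2 scale (51.8, 48.5 and 48.9 CPM against 27.6, 26.5 and 29.5 CPM). AGO3 and AGO4 fell, by 0.39 and 0.83 log2 units, and AGO1 was not called (log2 fold change -0.13). The scaffold genes also parted: TNRC6A and TNRC6B fell (-0.66 and -0.67), and TNRC6C rose (log2 fold change 0.52). TARBP2, the double-stranded RNA-binding partner of Dicer, fell by 0.45 log2 units. SND1 and DIS3L2, nucleases tied to RNA silencing and precursor decay, rose by 0.64 and 0.66 log2 units. ZSWIM8, the ligase adaptor of target-directed microRNA decay, rose by 0.52 log2 units.

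The long transcripts that carry microRNA hairpins were lower with mutation 1 as a group. Of 14 measured host transcripts (24 listed), 11 fell, 2 rose and 1 was not called, 8 of the falls were at least 2-fold, and the median was -1.71. The 14 and the 8 both count the MIR221 hairpin entry, which lies within MIR222HG and is not a long transcript. MIR3142HG, the host of miR-146a (chr5:160438594-160487426 on hg38), was at 0.199, 0.253 and 0.451 CPM with mutation 1 and 15.8, 17.5 and 16.3 CPM with mutation 3, a log2 fold change of -5.78 ± 0.20 (SE, adjusted p = 2.57e-40). MIR29B2CHG, which holds miR-29b-2 and miR-29c, was at 1.66, 1.52 and 1.28 against 10.0, 10.4 and 9.61 CPM (-2.74 on the log2 scale). The 2 groups were well separated for both.

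The lowly expressed polycistrons followed the same direction. MIR17HG, the miR-17 to miR-92a cluster (chr13:91347820-91354579), was at 0.331, 0.0632 and 0.301 against 1.84, 2.11 and 2.03 CPM (log2 fold change -3.09 ± 0.39 SE). MIRLET7BHG, which holds let-7a-3 and let-7b, was at 0.199, 0.506 and 0.602 against 3.14, 3.16 and 2.88 CPM (log2 fold change -2.81 ± 0.31 SE). MIR100HG, host of miR-100, let-7a-2 and miR-125b-1, was more abundant and fell from 77.6, 84.8 and 83.1 CPM with mutation 3 to 24.6, 27.8 and 23.8 CPM with mutation 1 (log2 fold change -1.68). MIR503HG and MIR210HG fell by 2.19 and 2.03 log2 units. MIR23AHG fell less, by 0.67 log2 units, as did the protein-coding hosts VMP1 (miR-21, -0.32) and MCM7 (miR-25, miR-93 and miR-106b, -0.23). MIR222HG was not called, with 27.2, 30.6 and 28.1 against 28.1, 27.5 and 28.9 CPM (log2 fold change 0.03, adjusted p = 0.723), although the MIR221 hairpin within the same stretch of chromosome X fell by 1.74 log2 units. MIR4435-2HG rose by 0.16 log2 units and MIR924HG, whose groups overlapped, by 0.46. The MIR924HG call was lost without mutation 1 replicate 3 (adjusted p = 0.295) and without mutation 3 replicate 2 (0.0628). Raising the minimum count to 50, which leaves out the lowly expressed hosts, brought the median to -0.68. Genes annotated as microRNAs leaned the other way: of 16 measured, 8 rose (50%) and 3 fell (18.8%), with a median of 0.67. All of these changes were at least 2-fold, against 7.44% higher and 8.33% lower over all genes tested. These libraries measure host transcripts and not the mature microRNAs.

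**Figure D2:**
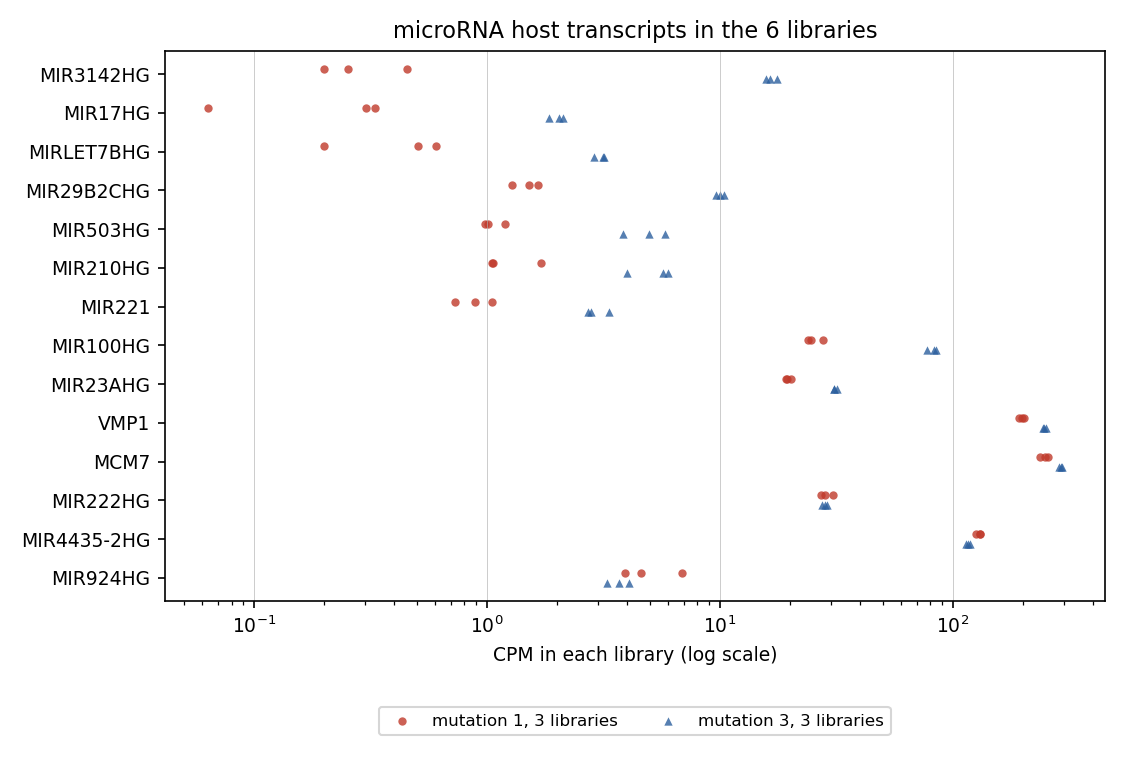
Level of each measured microRNA host transcript, and of the MIR221 hairpin entry, in CPM (log axis) in the 3 mutation 1 libraries (red circles) and the 3 mutation 3 libraries (blue triangles). The upper 11 transcripts show the mutation 1 libraries wholly to the left of the mutation 3 libraries, MIR3142HG with the widest gap, and the groups of MIR222HG and MIR924HG overlap.

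All 14 hosts matched RefSeq microRNA entries (GRCh38.p14). Mature products of hosts that fell 2-fold or more are printed, with miR-93-5p of MCM7 (a host that fell less) for comparison. The last, miR-221-3p, is printed for the MIR221 hairpin entry, which fell, while its long host MIR222HG was not called. The seed, in capitals (bases 2 to 8, 5′ to 3′), shows which hosts feed the same target set. MIR17HG and MCM7 share a seed through miR-17-5p, miR-20a-5p and miR-93-5p. MIRLET7BHG and MIR100HG share the let-7 seed, and both miR-29 products of MIR29B2CHG share theirs.
miR-146a-5p: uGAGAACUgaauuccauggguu
miR-17-5p: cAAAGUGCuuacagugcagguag
miR-20a-5p: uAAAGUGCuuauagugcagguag
miR-93-5p: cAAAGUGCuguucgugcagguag
miR-19a-3p: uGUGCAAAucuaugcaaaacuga
miR-92a-3p: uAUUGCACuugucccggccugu
let-7a-5p: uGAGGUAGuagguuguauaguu
let-7b-5p: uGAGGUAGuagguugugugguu
miR-100-5p: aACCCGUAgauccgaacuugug
miR-125b-5p: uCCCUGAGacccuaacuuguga
miR-29b-3p: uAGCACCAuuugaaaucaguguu
miR-29c-3p: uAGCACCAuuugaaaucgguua
miR-210-3p: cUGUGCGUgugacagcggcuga
miR-503-5p: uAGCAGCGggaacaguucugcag
miR-221-3p: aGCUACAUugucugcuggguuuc

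Genes that carry the complement of one of these seeds in the 3′ untranslated region had nearly the same median change as genes without it. For the let-7 site CTACCTC, found in 11.2% of 12038 protein-coding genes tested, the median log2 fold change was -0.044 with the site and 0.004 without. For the miR-17 site GCACTTT (25.6% of genes) the medians were -0.05 and 0.019. Of genes with this site 32.4% were called higher and 40.1% lower, against 38.6% and 35.4% without it. These were the widest such gaps of the 9 families. For the miR-29 site TGGTGCT (17% of genes) they were 0.006 and -0.001, and for the miR-146a site AGTTCTC (13% of genes) -0.007 and 0.001. Over the 9 seed families examined, no median differed by as much as 0.1 between the genes with and without a site. Genes with a site had longer untranslated regions (for let-7 a median of 3086 bases against 1245), and the part of this length in the small differences was not tested.

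Lists of well-known targets also held genes that moved in both directions. Of 26 let-7 targets measured, 9 rose and 14 fell (median -0.16). HMGA1, a chromatin architectural protein, fell from 2638, 2513 and 2485 CPM with mutation 3 to 1301, 1223 and 1269 CPM with mutation 1 (log2 fold change -1.01), HMGA2 fell by 0.84 log2 units and CDC25A, a phosphatase that activates cyclin-dependent kinases, fell by 1.47 log2 units. CCND2 and IL6, from the same list, rose by 5.89 and 2.54 log2 units. Of 25 miR-200 targets, 11 rose and 5 fell (median 0.07). The transcriptional repressors ZEB1 and ZEB2 were among those that fell (-0.33 and -0.62), while FN1 and the Notch ligand JAG1 rose (2.66 and 1.15). Of 31 targets of miR-21 and miR-17, 16 rose and 7 fell (median 0.18), with RHOB, a small GTPase, at 124, 116 and 120.3 against 15.3, 13.1 and 14.7 CPM (log2 fold change 3.06). Of 28 targets of miR-29 and miR-221, 19 rose and 5 fell (median 0.3).

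The largest increases with mutation 1 included genes that were all but silent with mutation 3. CCL2, the monocyte-attracting chemokine (chr17:34255218-34257203), was at 161, 155 and 155 CPM with mutation 1 and at 0.0592, 0 and 0.0701 CPM with mutation 3. Its ratio of means was 3640.0, with a 95% counting interval of 1030.0 to 30600.0, since all mutation 3 libraries together held 2 counts. Such intervals cover counting error only. MSI2, an RNA-binding protein of stem cells, was at 42.2, 42.3 and 42.0 against 0.0592, 0 and 0.0701 CPM (ratio 977, 275 to 8230.0). No library of one group came near the other for either gene. Genes named by size were taken only where the groups did not overlap, and genes with clone names were left out.

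TRIML2, ADGRE1, GALNT14, XAGE2, BDKRB2 and KLF8 had no count in any mutation 3 library. TRIML2 was at 14, 14.4 and 12.3 CPM with mutation 1, at least 70.9-fold higher (floor of 3 counts per library). ADGRE1, an adhesion receptor, was at least 59.1-fold higher, and GALNT14, an enzyme that starts mucin-type glycosylation, at least 53-fold. XAGE2, a cancer/testis antigen, was at least 32-fold higher, the bradykinin receptor gene BDKRB2 at least 29.2-fold and the transcription factor gene KLF8 at least 27.1-fold. In all, 32 of the 1057 genes at least 2-fold higher had no count in mutation 3, while 5 of the 1184 lower genes had none in mutation 1.

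More of the largest increases started from near silence with mutation 3. The atypical chemokine receptor gene ACKR3 was at 18.3, 17.6 and 17.7 against 0.0592, 0 and 0.0701 CPM (ratio 414, 95% counting interval 116 to 3490.0). The basement membrane collagen gene COL4A5 was at 17.0, 17.6 and 17.3 against 0.178, 0 and 0 CPM (ratio 292, 92.9 to 1320.0). NFATC4, a calcineurin-regulated transcription factor, was at 19.4, 20.2 and 22.7 against 0.118, 0.124 and 0.0701 CPM, a log2 fold change of 7.5 ± 0.23 (SE). That the groups did not overlap was again a condition for naming these genes. The cyclin gene CCND2 rose by 5.89 log2 units, the guidance cue gene SEMA5A by 6.18 and the homeobox gene IRX3 by 5.33. The stress gene GADD45G and the myosin gene MYH14, with at most 3 counts over the mutation 3 libraries, were higher by a ratio of 80.8 (27.1 to 392) and 127 (33.1 to 1000.0). TP53I11, a p53-induced gene, was the most abundant protein-coding gene of the 20 largest increases, at 224, 219 and 226 against 4.5, 5.15 and 5.26 CPM (log2 fold change 5.49 ± 0.060 SE).

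One of the 20 was a small nucleolar RNA. SNORD14E (chr11:123058077-123058161), which lies in an intron of HSPA8, was at 56.2, 58.9 and 67.8 CPM with mutation 1 and 0.0592, 0 and 0.0701 CPM with mutation 3 (ratio 1410.0, 397 to 11800.0). HSPA8 itself rose from 1059, 1086 and 1062 CPM to 2721, 2768 and 2692 CPM (log2 fold change 1.35). Of 28 small nucleolar RNAs measured, 23 rose, all of them at least 2-fold, and none fell (median 2.33). The 23 were 82.1% of those measured, while 7.44% of all genes rose at least 2-fold. They made up 0.01518% to 0.01651% of counts with mutation 1 and 0.004254% to 0.004358% with mutation 3, and poly(A) selection is not made to capture them.

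The most abundant genes that rose 2-fold or more included the chaperone genes HSPA5 and HSPA8. HSPA5, the main chaperone of the endoplasmic reticulum, was at 3573, 3606 and 3606 CPM against 999, 1034 and 1039 CPM (log2 fold change 1.81 ± 0.025 SE). CEMIP, a hyaluronan-degrading secreted protein, was at 2484, 2463 and 2419 against 477, 478 and 469 CPM (log2 fold change 2.37). The libraries of a group agreed to within a few percent for both. IGFBP4, the adhesion gene L1CAM, the lipid desaturase gene SCD, CALU, LGALS3BP, PTMA and the nuclear paraspeckle RNA NEAT1 rose by 1.28, 1.87, 1.21, 1.02, 1.19, 1.33 and 1.02 log2 units.

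**Figure D3:**
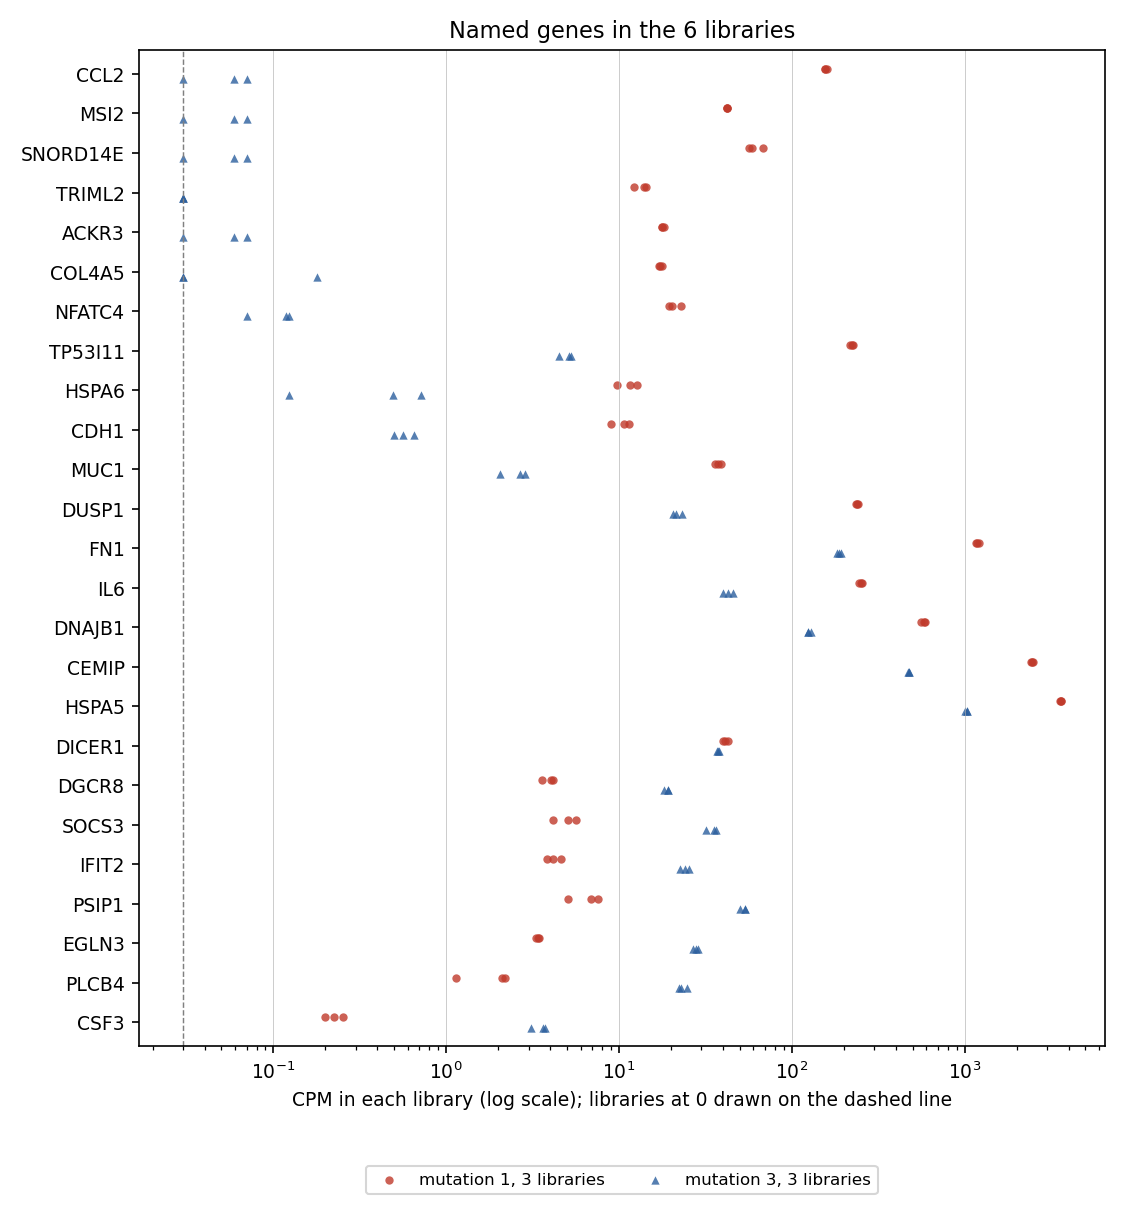
CPM (log axis) of 25 genes described in the text in each mutation 1 library (red circles) and each mutation 3 library (blue triangles), with libraries at 0 on the dashed line. No gene shown has overlapping groups, and the gap is smallest for DICER1 and widest for CCL2.

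Mitochondrial transcripts were 6 of the 20 largest decreases with mutation 1 among genes named by size. These had a higher group of at least 5 CPM, groups that did not overlap and no clone name. All 13 mitochondrially encoded mRNAs measured, which code for subunits of the respiratory chain and ATP synthase, fell, 11 of them at least 2-fold, with a median of -2.37. MT-ND1 (chrM:3307-4262), a core subunit of complex I, was at 255, 235 and 235 CPM with mutation 1 and 4591, 4351 and 4254 CPM with mutation 3 (log2 fold change -4.19 ± 0.031 SE, adjusted p = 3.48e-88). MT-CO1, of cytochrome c oxidase, was at 1612, 1575 and 1524 against 8282, 8045 and 8009.9 CPM (log2 fold change -2.37). The smallest falls were those of the neighbouring MT-ND4L (log2 fold change -0.79) and MT-ND4, at 6669.7, 6326 and 6257 against 13091, 12776 and 12484 CPM (log2 fold change -0.99). The fall was thus unequal across one polycistronic genome, from -4.19 to -0.79. The transfer RNA genes MT-TL1 and MT-TY fell by 6.07 and 3.39 log2 units.

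Mitochondrial mRNAs made up 1.2665% to 1.3573% of counts with mutation 1 and 4.8057% to 5.0477% with mutation 3. The share was 4.4759% to 5.5668% with mutation 2, 1.3398% in the first wild-type library and 5.0386% and 5.0906% for the remaining wild-type libraries. The low share was therefore not particular to mutation 1 among the 12 libraries. Nuclear genes of complex I showed no such fall. Of 35 measured, 13 rose (37.1%, against 35% of all genes) and 9 fell (25.7%, against 35.9%), with a median of 0.03. The rises were led by NDUFA10 (log2 fold change 0.80), and none of the changes reached 2-fold. Leaving the mitochondrial genes out of the scaling gave 10047 calls against 10073.

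**Figure D4:**
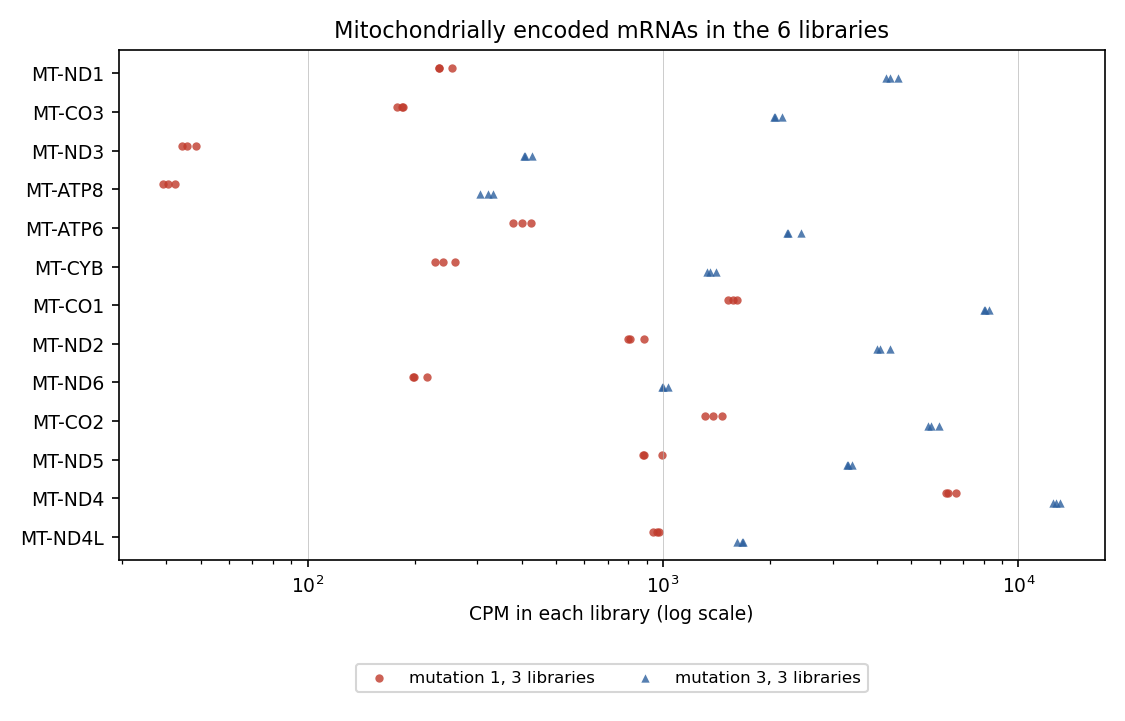
CPM (log axis) of the 13 mitochondrially encoded mRNAs in the 3 mutation 1 libraries (red circles) and the 3 mutation 3 libraries (blue triangles). In every row the mutation 1 libraries lie to the left, with the gap widest for MT-ND1 and narrowest for MT-ND4L.

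Nuclear genes that fell most included regulators of signalling, chromatin and oxygen sensing. PSIP1, a chromatin reader also called LEDGF, was at 6.89, 7.52 and 5.04 CPM with mutation 1 and 49.9, 53.5 and 53.7 CPM with mutation 3 (log2 fold change -3 ± 0.083 SE). EGLN3, a prolyl hydroxylase that marks hypoxia-inducible factors for decay, was at 3.31, 3.41 and 3.46 against 27.9, 26.7 and 28.5 CPM (log2 fold change -3.03). SOCS3, the feedback inhibitor of cytokine signalling, was at 5.10, 5.62 and 4.14 against 36.5, 35.4 and 31.8 CPM (log2 fold change -2.79). The mutation 1 libraries were lower by a wide margin for all of them. Genes named by size were taken only where the groups did not overlap. PLCB4, a phospholipase, fell by 3.70 log2 units, TSPYL5 fell by 3.84 log2 units, the Mediator subunit gene MED18 fell by 3.21 log2 units, the mitochondrial prolyl-tRNA synthetase gene PARS2 fell by 3.12 log2 units, the helicase gene DDX28 fell by 3.32 log2 units and the zinc finger gene ZNF302 fell by 3.11 log2 units. CYP1A1, the classic target of the aryl hydrocarbon receptor, fell by 2.97 log2 units.

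Mesenchymal genes were more often higher than lower with mutation 1. Of 23 mesenchymal markers measured (32 listed), 15 rose and 5 fell (median 0.46), and 6 of the rises were at least 2-fold. The rises were 65.2% and the falls 21.7%, against 35% and 35.9% of all genes. Listed markers that were not tested included CDH2, COL1A2, COL3A1, FAP and THY1, the last 2 without a count in any library. FN1, the matrix protein fibronectin, was at 1207, 1179.5 and 1169 CPM with mutation 1 and 186, 192 and 183 CPM with mutation 3 (log2 fold change 2.66 ± 0.029 SE). TNC, tenascin C, was at 403, 380.3 and 399 against 86.4, 90.7 and 90.6 CPM (log2 fold change 2.14). PDGFRB, CDH11, COL5A1 and LOX rose by 1.79, 1.49, 1.46 and 1.25 log2 units, while VIM rose by 0.33 log2 units. ENG and ACTA2, smooth muscle alpha-actin, fell by 1.78 and 1.15 log2 units, so the list did not move as one.

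Epithelial genes were also more often higher. Of 30 measured (40 listed), 18 rose and 6 fell (median 0.26). The rises were 60% and the falls 20%, against 35% and 35.9% of all genes. Listed markers that were not tested included OCLN, ESRP1, GRHL2 and KRT5, the last 2 without a count in any library. CDH1, the E-cadherin of epithelial junctions (chr16:68737225-68835548), was at 11.5, 10.7 and 9.02 CPM with mutation 1 and 0.652, 0.496 and 0.561 CPM with mutation 3 (log2 fold change 4.17 ± 0.20 SE, adjusted p = 1.72e-31). MUC1, a membrane mucin, was at 39.1, 35.8 and 37.2 against 2.84, 2.05 and 2.67 CPM (log2 fold change 3.89). CDH1 stayed a lowly expressed gene in both groups. KRT81 and SPINT1 rose by 1.86 and 1.52 log2 units, while the keratin KRT18 and the epithelial regulators ELF3 and ESRP2 fell by 0.32, 0.92 and 0.35 log2 units.

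Of 25 regulators of epithelial-mesenchymal transition and TGF-β signalling, 16 rose and 8 fell (median 0.38), 9 and 3 of them at least 2-fold. SNAI1 and SNAI2, repressors of E-cadherin, were higher with mutation 1, at 17.4, 18.6 and 19.1 against 6.34, 6.76 and 6.24 CPM and at 21.3, 24.5 and 25.3 against 8.77, 9.80 and 7.86 CPM. TGFB1, TGFB2 and the TGF-β-induced gene TGFBI rose by 1.16, 0.91 and 1.24 log2 units. ZEB1, ZEB2 and the signal transducer SMAD3 fell (-0.58 for SMAD3), and SOX9 fell by 1.73 log2 units. The inhibitor-of-differentiation genes parted: ID1 fell from 91.4, 85.3 and 81.4 CPM with mutation 3 to 30.3, 28.1 and 30.6 CPM with mutation 1, while ID3 rose by 2.04 log2 units and ID2 by 4.40. SOX4, with 1 count over the mutation 3 libraries, was at 2.34 ± 0.551 against 0.0198 ± 0.0342 CPM (ratio 119, 19.5 to 4430.0).

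Of 26 matrix genes, 19 rose and 4 fell (median 0.51). THBS2, an antiangiogenic matrix protein, was at 50.1, 47.8 and 49.9 against 3.55, 4.09 and 4.42 CPM (log2 fold change 3.62), and EFEMP1 and COL12A1 rose by 2.02 and 1.44 log2 units. HSPG2, COL13A1 and LAMB3 fell by 0.53, 0.43 and 0.29 log2 units. Of 16 integrin genes, 8 rose and 5 fell: ITGB1 and ITGAV rose by 0.71 and 0.90 log2 units, and ITGA3 and ITGA2 fell by 0.50 and 0.48 log2 units. Of 23 proteases and inhibitors, 14 rose and 4 fell: the inhibitors TIMP1 and TIMP2 rose by 0.96 and 0.85 log2 units, the membrane protease gene MMP14 by 0.51 and the urokinase receptor gene PLAUR by 1.04, and the collagenase gene MMP1 fell by 2.85 log2 units from under 1 CPM (0.108 ± 0.101 against 0.866 ± 0.0236 CPM).

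Most chaperone genes of the endoplasmic reticulum rose with mutation 1. Of 28 chaperone and quality-control genes, 22 rose and 2 fell (median 0.41), and HSPA5 alone passed 2-fold. HSP90B1, CALR, PDIA4 and PDIA3 rose by 0.72, 0.81, 0.71 and 0.66 log2 units. The 2 that fell were ERN1 (log2 fold change -0.77), the stress sensor IRE1, and EDEM1 (log2 fold change -0.45), a mannosidase of the degradation pathway.

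Cytosolic heat shock genes split. Of 23 measured, 12 rose and 9 fell (median 0.22, and 0.11 with a minimum count of 50), and 6 of the rises and none of the falls were at least 2-fold. HSPA6, a strictly inducible HSP70, was at 11.5, 12.6 and 9.70 CPM with mutation 1 and 0.711, 0.124 and 0.491 CPM with mutation 3 (log2 fold change 4.65 ± 0.22 SE). DNAJB1, an HSP40 co-chaperone, was at 592, 558 and 581 against 125, 128 and 124 CPM (log2 fold change 2.20), and HSPB1, HSP27, at 670.5, 626 and 684 against 185, 174 and 167 CPM (log2 fold change 1.91). No library of mutation 3 reached the mutation 1 range for any of the 3. CHORDC1 rose by 1.28 log2 units. Falling members included HSPA4 (log2 fold change -0.60), STIP1 (log2 fold change -0.36), the mitochondrial chaperonin gene HSPD1 (log2 fold change -0.34) and BAG3 (log2 fold change -0.31). HSPA1A and HSPA1B, near-identical copies, were not tested.

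The heat shock element, searched as GAANNTTCNNGAA on both strands, was present in 5 of 21 heat shock promoters in RefSeq (GRCh38.p14, 250 bases before to 50 after the start) and in 0.317% of 10408 promoters of tested genes. It was present in 0.984% of the promoters of genes at least 2-fold higher and in 0.27% of those at least 2-fold lower (6 and 2 promoters). HSPA6, HSPA8 and CHORDC1, printed below, are among the 6. Other motifs were searched too. TATAAA was in 9.02% of higher and 7.69% of lower promoters against 5.27% of all, and TGAGTCA in 5.08% and 5.4% against 3.22%. CACGTG was in 8.03% and 8.37% against 10%. Of the 5, 4 hold it in the 150 bases before the start, and DNAJA1 (log2 fold change -0.27) does not. Those 150 bases are printed for the 4, 5′ to 3′ on the gene's strand with the element in capitals, because 3 of these genes rose more than 2-fold (HSPA6, HSPA8 and CHORDC1) and 1 fell slightly (DNAJB6, -0.29). The element begins 74 bases before the start in HSPA6, 55 in HSPA8, 60 in CHORDC1 (3 overlapping matches) and 131 in DNAJB6, at chr1:161524390-161524539 (plus), chr11:123062137-123062286 (minus), chr11:90223050-90223199 (minus) and chr7:157336854-157337003 (plus). DNAJB1, HSPB1 and HSPB8 also rose more than 2-fold (2.20, 1.91 and 1.53) and held no match in the bases searched. A match is a description of letters and not a shown binding site.
HSPA6: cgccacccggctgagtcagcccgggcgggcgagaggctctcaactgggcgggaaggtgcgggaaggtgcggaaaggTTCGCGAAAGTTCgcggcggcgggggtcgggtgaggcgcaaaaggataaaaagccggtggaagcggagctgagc
HSPA8: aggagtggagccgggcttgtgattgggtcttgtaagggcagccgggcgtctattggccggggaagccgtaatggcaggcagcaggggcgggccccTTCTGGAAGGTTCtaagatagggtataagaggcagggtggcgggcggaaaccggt
CHORDC1: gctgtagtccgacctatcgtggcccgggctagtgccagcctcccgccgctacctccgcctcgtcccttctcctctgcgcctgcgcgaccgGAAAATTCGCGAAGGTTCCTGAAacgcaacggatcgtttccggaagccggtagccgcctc
DNAJB6: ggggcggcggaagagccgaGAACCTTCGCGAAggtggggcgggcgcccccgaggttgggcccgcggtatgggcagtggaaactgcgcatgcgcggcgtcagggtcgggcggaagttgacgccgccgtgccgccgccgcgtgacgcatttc

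Lysosomal genes rose almost throughout, by small amounts. Of 37 measured, 33 rose (89.2%, against 35% of all genes) and 3 fell (8.11%, against 35.9%). The median was 0.36, and 3 of the rises were at least 2-fold. The cathepsin genes CTSL, CTSF, CTSZ and CTSA rose by 1.23, 0.88, 0.87 and 0.74 log2 units, and the sulfatase gene IDS by 1.07. CTSK, GAA and MANBA fell by 0.76, 0.40 and 0.29 log2 units. Cholesterol genes moved the same way, 18 of 29 up and 2 down (median 0.35). INSIG1, the sterol-regulated brake on the SREBP pathway, was at 198, 199 and 186 against 53.7, 55.2 and 53.7 CPM (log2 fold change 1.84), and the synthesis genes MSMO1 and DHCR7 rose by 1.17 and 0.83 log2 units. NSDHL and the efflux pump gene ABCA1 fell by 0.50 and 0.23 log2 units.

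Proteasome genes went the other way. Of 36 measured, 22 fell (61.1%, against 35.9% of all genes) and 1 rose (2.78%, against 35%). The median was -0.17, and none reached 2-fold. PSMA3, of the core particle, was at 29.1, 30.9 and 29.1 CPM with mutation 1 and 53.9, 50.8 and 52.0 CPM with mutation 3 (log2 fold change -0.81), and PSMD12, PSMD7, PSMC5 and PSMD4 fell by 0.80, 0.79, 0.69 and 0.58 log2 units. PSMA2, which rose by 0.56 log2 units, was lowly counted (4.56 ± 0.291 against 3.09 ± 0.27 CPM).

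Cytosolic ribosomal protein genes rose slightly, 58 of 76 up and 3 down, with a median of 0.16. RPL28 and RPL13A rose by 0.38 and 0.35 log2 units, and RPL13, RPS12 and RPL38 fell by 0.48, 0.45 and 0.40 log2 units. RPL17 rose by 1.74 log2 units and RPS9 by 1.71, but both were among the 3 members with the lowest counts under mutation 3 (RPL17 33.7 ± 2.44 against 10.1 ± 0.325 CPM), and genes of this family share reads with pseudogene copies. Splicing factor and RNA helicase genes rose in 19 of 37 cases and fell in 11 (median 0.1), with CLK1 and SRSF3 at 0.88 and 0.84 and DDX5 at -0.75. Of 14 long noncoding RNAs, 9 rose and 3 fell: SNHG15, SNHG12 and KCNQ1OT1 rose by 1.63, 1.12 and 1.67 log2 units, and MALAT1 fell by 0.40 log2 units.

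Inflammatory genes rose more often than they fell. Of 31 cytokine, chemokine and NF-kB genes, 20 rose and 7 fell (median 0.36), 9 and 2 at least 2-fold. The rises were 64.5% and the falls 22.6%, against 35% and 35.9% of all genes. At 2-fold or more the shares were 29% and 6.45%, against 7.44% and 8.33%. IL6 was at 250.4, 254 and 244 CPM with mutation 1 and 45.9, 42.5 and 39.9 CPM with mutation 3 (log2 fold change 2.54 ± 0.041 SE). Smaller rises included those of IL32 (log2 fold change 1.55) and the neutrophil chemokine gene CXCL8 (log2 fold change 1.10). Cytokine genes were also among the 7 that fell: CSF3 was at 0.199, 0.253 and 0.226 against 3.08, 3.66 and 3.72 CPM (log2 fold change -3.89), IL1A fell by 2.17 log2 units, IL24 fell by 0.90 log2 units and IL1B fell by 0.75 log2 units.

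Interferon-stimulated genes did not move as a block. Of 36 measured, 19 rose and 8 fell (median 0.32), 6 and 3 at least 2-fold. ISG15, a ubiquitin-like protein, was at 71.6, 68.0 and 82.3 CPM with mutation 1 and 19.4, 17.0 and 15.6 CPM with mutation 3 (log2 fold change 2.08 ± 0.065 SE). IFIT2, which binds viral RNA complexes, was at 4.17, 4.61 and 3.83 against 25.3, 22.6 and 24.1 CPM (log2 fold change -2.50 ± 0.10 SE). The groups were apart in opposite directions for these members of one list. BST2 and IFITM3 rose by 1.34 and 0.89 log2 units, while IFIT5 and IFIT3 fell by 1.39 and 0.89 log2 units. Of 18 nucleic acid sensor genes, 5 rose and 9 fell (median -0.16): TBK1, RIGI, TRIM25 and MAVS fell by 0.95, 0.88, 0.87 and 0.81 log2 units, and STING1 and CGAS rose by 0.64 and 0.40 log2 units. Of 14 antigen presentation genes, 10 rose and 4 fell: HLA-B rose by 0.67 log2 units and its activator NLRC5 fell by 0.68 log2 units. TAP1 and TAP2 were not tested.

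Cell cycle genes held both rises and falls. Of 46 replication and G1/S genes, 12 rose and 23 fell (median -0.14), and of 40 G2/M genes 24 rose and 8 fell (median 0.2). The flap endonuclease gene FEN1 and the origin gene ORC6 fell by 1.29 and 1.11 log2 units, TK1, MCM3 and PCNA fell by 0.61, 0.58 and 0.35 log2 units, while RRM2 rose by 0.72 log2 units. CDK1, the mitotic kinase, was at 218, 241 and 223 CPM with mutation 1 and 126, 122 and 133 CPM with mutation 3 (log2 fold change 0.84). UBE2C, CDC25B, ANLN and TOP2A rose by 0.78, 0.73, 0.69 and 0.68 log2 units. CENPF and MKI67, the Ki-67 proliferation antigen, fell by 0.76 and 0.43 log2 units. No G2/M gene reached 2-fold.

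Of 32 genes of homologous recombination and the Fanconi pathway, 9 rose and 17 fell (median -0.17). BRCA1, RAD51C, BRIP1 and BLM fell by 0.93, 1.01, 0.86 and 0.76 log2 units, and EXO1, RAD54L and FANCB rose by 0.64, 0.46 and 1.18 log2 units. Of 30 chromatin repressor genes, 9 rose and 17 fell (median -0.18): JARID2, PRMT7 and HDAC2 fell by 1.05, 1.15 and 0.44 log2 units, and PHF1 rose by 2.62 log2 units. Of 30 E2F, cyclin and inhibitor genes 12 rose and 12 fell (40% each, near the 35% and 35.9% of all genes). E2F3 and CDKN2C fell by 0.96 and 0.88 log2 units, and CCND3 and CDKN1A rose by 0.94 and 0.77 log2 units. Of 19 histone genes 11 rose and 3 fell (median 0.5, and 0.19 with a minimum count of 50).

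Genes of growth factor signalling changed at both ends of the range. Of 40 MAPK feedback and AP-1 genes, 23 rose and 12 fell (median 0.24), 7 and 3 at least 2-fold. DUSP1, a phosphatase that switches off stress kinases, was at 234, 237 and 243 CPM with mutation 1 and 21.4, 20.6 and 23.2 CPM with mutation 3 (log2 fold change 3.46 ± 0.045 SE). FOS was at 15.8, 13.9 and 16.8 against 2.43, 2.17 and 2.60 CPM (log2 fold change 2.69). EGR1, another immediate early gene, went the opposite way, at 1.59, 1.77 and 1.43 against 6.28, 7.44 and 5.75 CPM (log2 fold change -2.01). DUSP6 and SPRED1, which damp ERK signalling, fell by 1.62 and 1.59 log2 units, and JUN fell by 0.76 log2 units. The receptor gene EGFR rose by 0.47 log2 units.

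Hypoxia and glycolysis genes rose in 21 of 36 cases and fell in 14 (median 0.14). ADM, adrenomedullin, was at 346, 342 and 353 against 87.1, 84.3 and 91.1 CPM (log2 fold change 1.99) and HIF1A at 806, 814 and 788 against 374, 372 and 374 CPM (log2 fold change 1.10), while EGLN3 and HK2 fell (-0.94 for HK2). Of 30 YAP/TAZ targets 15 rose and 8 fell: CCN1 and GADD45A rose by 0.58 and 1.56 log2 units, and CCN2 and ANKRD1 fell by 0.77 and 0.51 log2 units. Of 32 ATF4 and amino acid stress genes 14 rose and 14 fell, with CEBPB at 1.64 and GDF15 and SESN2 at -1.74 and -1.83. Of 30 NRF2 targets 12 rose and 11 fell (40% and 36.7%, near the 35% and 35.9% of all genes). The ferritin light chain gene FTL was at 0.92 and NQO1 and OSGIN1 at -0.71 and -1.24.

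Aldehyde dehydrogenase and kynurenine genes rose in 5 and fell in 7 of 20 cases, with TIPARP up by 1.22 beside the fall of CYP1A1. Of 17 lineage genes of bone, fat and mesenchyme 7 rose and 5 fell, including LPL, lipoprotein lipase, up by 3.57. Of 11 luminal and basal breast markers 8 rose and 1 fell, none by 2-fold. Of 30 mucin and secretory genes listed, 6 were measured: MUC1 and WFDC2 rose by 3.89 and 3.90 log2 units, and LCN2 and FOXA3 fell by 1.29 and 1.45 log2 units.

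**Figure D5:**
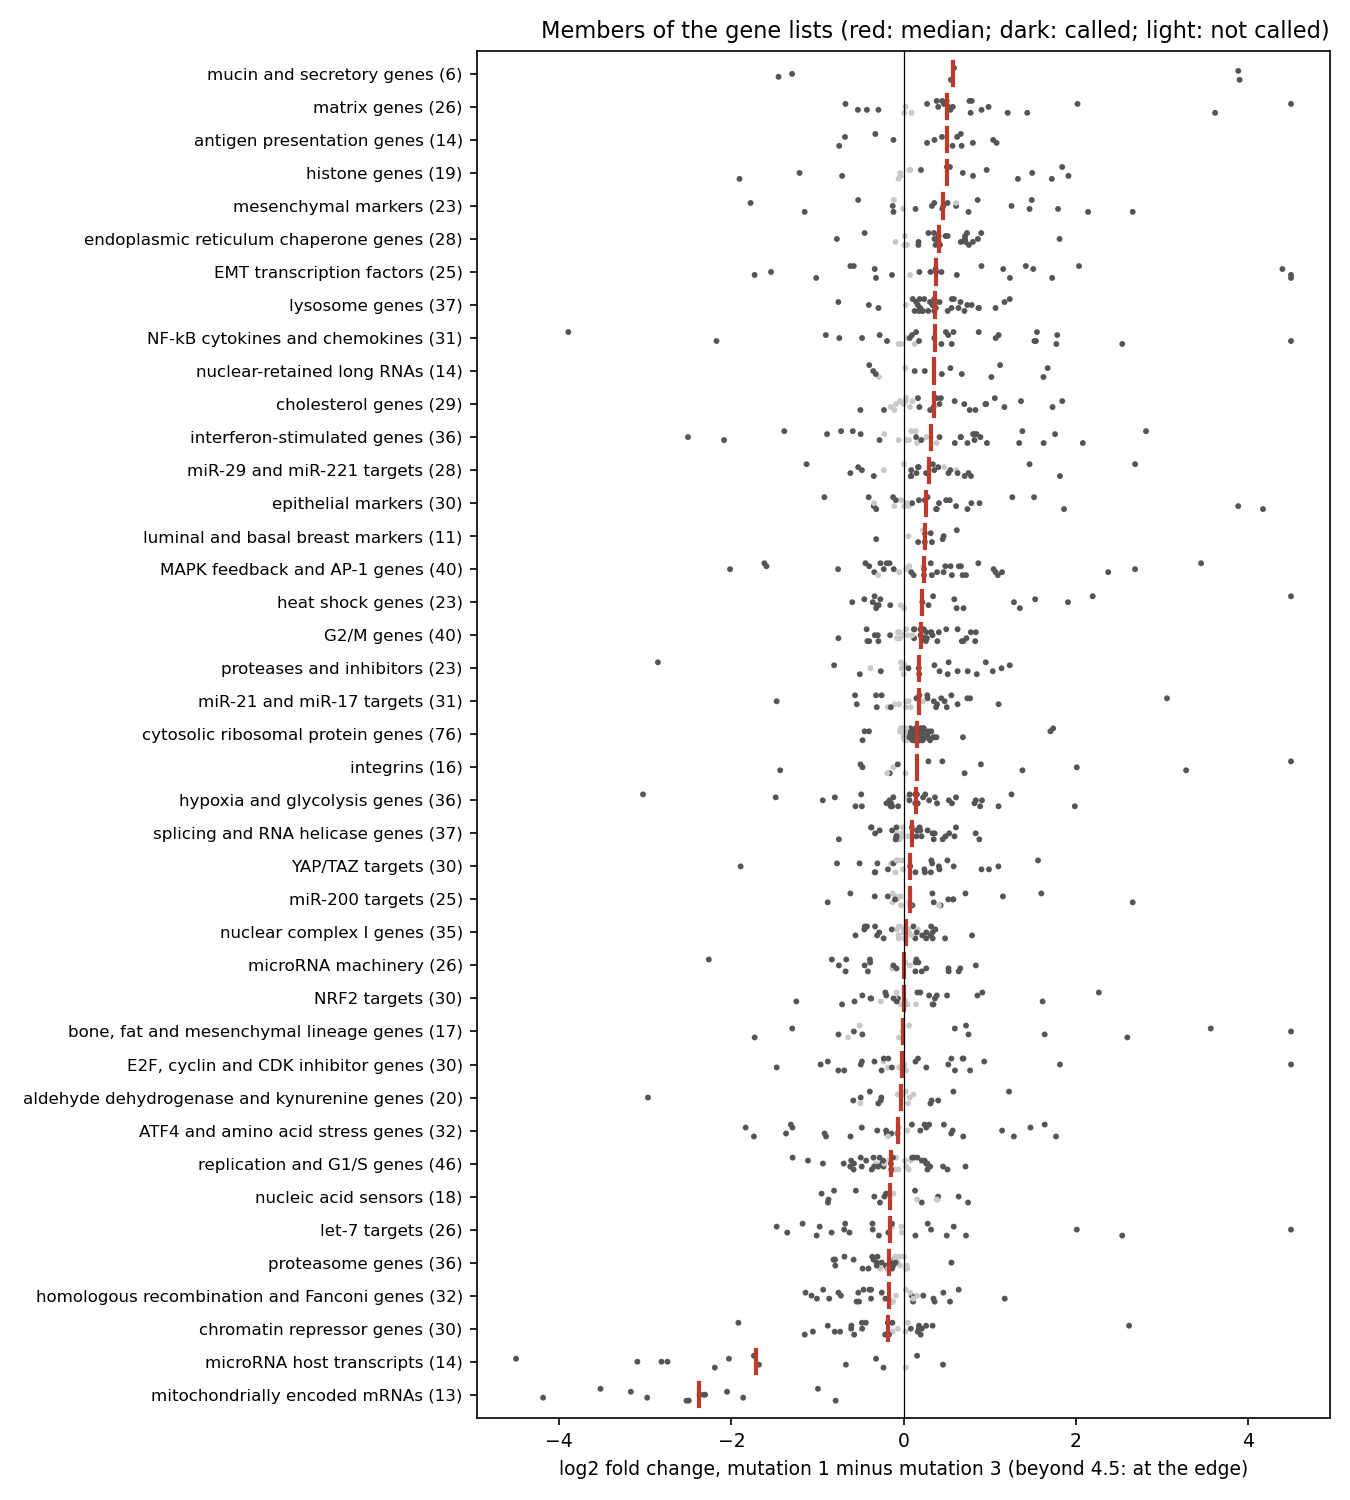
Log2 fold change (mutation 1 minus mutation 3) of every measured member of 41 gene lists, ordered by median (red bar), with the number measured in brackets, called members dark and others light, and values beyond 4.5 drawn at the edge. The mitochondrial mRNAs (median -2.37) and the microRNA host transcripts (median -1.71) lie apart from the other lists, whose medians run from -0.18 to 0.57.

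The other groups place this difference. For the 2241 genes called and at least 2-fold apart, the mean of the mutation 2 libraries on the log2 scale was nearer mutation 3 for 1741 (77.7%) and nearer mutation 1 for 500. Wild-type replicates 2 and 3 were nearer mutation 3 for 76.3% and 76.1% of these genes, and wild-type replicate 1, which differed widely from the other wild-type libraries, for 66.4%. Mutation 2 lay beyond mutation 3, away from mutation 1, for 1128 genes and beyond mutation 1 for 209. These genes were chosen on mutation 1 against mutation 3, and the placing is a description.

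Scaled over all 12 libraries, HSPA5 was at 3741, 3768 and 3767 CPM with mutation 1, 1009, 1005 and 1005 with mutation 2, 1041, 1077 and 1079 with mutation 3 and 1320.0, 944 and 944 in the wild-type libraries. Mutation 1 stood alone. DUSP1 was also highest with mutation 1 (245, 248 and 253 CPM), against 10.0, 9.80 and 8.68 CPM with mutation 2, 22.3, 21.4 and 24.1 CPM with mutation 3 and 15.6, 11.7 and 12.2 CPM in the wild-type libraries. SNORD14E was at 58.9, 61.5 and 70.8 CPM with mutation 1 and at most 0.46 CPM in each of the other 9 libraries. PSIP1 was low with mutation 1 alone, at 7.21, 7.86 and 5.26 CPM against 67.6, 63.7 and 66.1 with mutation 2, 52.0, 55.7 and 55.8 with mutation 3 and 73.7, 73.0 and 71.2 with wild type.

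Other genes had a different pattern on the same scale. MSI2 was at 44.2, 44.2 and 43.8 CPM with mutation 1 and 0.751, 27.6 and 27.0 in the wild-type libraries, but at 0.712, 0.723 and 1.31 with mutation 2 and 0.0617, 0 and 0.0728 with mutation 3. CCL2 was at 168, 162 and 162, 4.55, 3.62 and 4.23 and 0.0617, 0 and 0.0728 CPM with mutations 1, 2 and 3, and at 16.2, 0.0565 and 0 in the wild-type libraries. DGCR8 was at 4.37, 3.76 and 4.24, 52.4, 57.8 and 57.3 and 18.9, 20.1 and 19.9 CPM with mutations 1, 2 and 3 and 37.1, 61.9 and 61.9 in the wild-type libraries, so that both mutants compared here lay below the other libraries. EGLN3 was at 3.47, 3.57 and 3.61, 17.5, 20.2 and 20.7 and 29.1, 27.8 and 29.6 CPM with mutations 1, 2 and 3, and the wild-type libraries spanned 59.0, 6.27 and 6.69. CDH1 was at 12, 11.2 and 9.43 CPM with mutation 1 and 14.4, 1.19 and 1.25 CPM in the wild-type libraries, with wild-type replicate 1 as high as mutation 1.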

How the data were processed

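The deposited files give raw read-pair counts per gene, made by the authors with featureCounts 2.0.6, per the file headers: unstranded, over exons joined by gene ID, with mapping quality of at least 10, against an hg38 Ensembl gene track. Overlapping or antisense genes therefore cannot be told apart, and near-identical copies lose reads. Trimming with cutadapt 1.9.1, FastQC 0.11.8 and alignment with STAR are named in the submitters' processing notes. Libraries were poly(A)-selected, so mature microRNAs were not measured. Symbols, coordinates and exons came from GENCODE v29, and symbols were found for 56591 of 64252 gene IDs, which held 99.68% of counts.

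The 6 libraries were filtered (filterByExpr, minimum count 10), scaled by TMM and tested by edgeR 4.0.16 (quasi-likelihood F test) in R 4.3.3 with Benjamini-Hochberg adjustment over all genes. CPM values were computed from the counts with the same scaling. Wild-type replicate 1 stood apart from its group, which is why the wild-type libraries were left out of the fit. Mutation 2 was also left out, and a fit of the 9 mutant libraries gave 10217 calls against 10073. The code was tested on simulated data. Named genes are the microRNA machinery, genes chosen by size or level, members of each list, and 32 genes named after their values were seen. By size they are the 20 largest called changes in each direction among genes whose higher group averaged 5 CPM or more. By level they are the 10 most abundant 2-fold changes in each direction. Both choices took only genes whose groups did not overlap and left out clone-type symbols. From each list they are the 5 members of smallest adjusted p, up to 3 called against the majority and its defining members. The comparison and gene lists were chosen with earlier results of these data known. Alternatives were other scalings, filters, library sets, leaving out each library, a test against a fold of 1.5 and DESeq2 1.42.0.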

Additional observations from a re-analysis of the deposited data

How the results depend on the processing

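No paired analysis was possible because the mutation 1 and mutation 3 libraries carry no replicate number in the labels. Over 16 alternatives no called gene was called in the opposite direction, and 224 of 354 named genes kept their call or lack of one in every alternative. The count of called genes was 10073 and was 6454 with all 12 libraries, 3016 when tested against a fold of 1.5 and 9707 to 9888 leaving out 1 library. The count at 2-fold or more was 2241 and fell to 1249 with a minimum count of 50, where fewer genes (11286) were tested, and ran from 2400.0 to 2440.0 leaving out 1 library. DESeq2 called 8966 genes. Upper-quartile scaling gave 45.5% of calls as higher, against 49.4%. With a minimum count of 50, the median of the microRNA host transcripts moved from -1.71 to -0.68, that of the mucin and secretory genes from 0.57 to 2.21, histone genes from 0.5 to 0.19, heat shock genes from 0.22 to 0.11, integrins from 0.16 to 0.02, bone and fat lineage genes from -0.01 to 0.32 and markers of other cell types from 0.21 to 0.75. The other 35 lists moved by less than 0.1. Genes under about 10 counts a library rest on few reads.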

Other observations

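The groupings that follow were chosen after seeing the data and carry no test. Nuclear protein-coding genes with 1 exon in every annotated transcript were more often lower with mutation 1. Of 160 measured, 36 rose (22.5%, against 35% of all genes) and 87 fell (54.4%, against 35.9%). Of the falls, 42 were at least 2-fold (26.2% of these genes, against 8.33% of all). The median log2 fold change was -0.39, against -0.01 over all genes. RHOB, one of them, went the other way, at 120.07 against 14.384 CPM. Genes whose symbol begins with ZNF, most of which code for zinc finger transcription factors, fell in 253 and rose in 56 of 421 cases (median -0.44). These were 60.1% and 13.3%, against 35.9% and 35% of all genes. Of the falls, 88 were at least 2-fold (20.9% of the ZNF genes, against 8.33% of all genes). All 6 mitochondrial transfer RNA genes measured fell (median -2.93), as did both mitochondrial ribosomal RNAs (median -0.57).

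Along the genome, 4 stretches held neighbouring genes that mostly moved one way (running median over 41 genes beyond 0.35 for at least 30 windows, genes of at least 5 CPM, hg38). On chromosome 16, 186 genes from ADCY7 to PIEZO1 (50.2 to 88.8 Mb) had a median of -0.58, and 153 of them fell. On chromosome 6, 63 genes from ASCC3 to L3MBTL3 (100.5 to 130.1 Mb) had a median of -0.54, and on chromosome 17, 93 genes from DHX40 to UNK (59.6 to 75.8 Mb) one of -0.54. On chromosome 2, 30 genes from PTMA to HDAC4 (231.7 to 239.4 Mb) had a median of 0.54, and 27 of them rose.

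Which mutant stood apart in a stretch differed with the group it was set against. The chromosome 6 stretch had a median of -0.66 for mutation 1 minus mutation 2 and -0.05 for mutation 3 minus mutation 2. Against wild-type replicates 1, 2 and 3 it had medians of 0.08, -0.08 and -0.06 for mutation 1 and of 0.53, 0.38 and 0.41 for mutation 3. The chromosome 16 stretch had -0.18 for mutation 1 and 0.43 for mutation 3 minus mutation 2. Against the wild-type replicates it had -0.15, -0.66 and -0.64 for mutation 1 and 0.3, -0.16 and -0.07 for mutation 3. The chromosome 17 stretch had 0.06 for mutation 1 and 0.46 for mutation 3 minus mutation 2. Against the wild-type replicates it had -0.16, -0.41 and -0.4 for mutation 1 and 0.23, 0.16 and 0.16 for mutation 3. The chromosome 2 stretch had -0.09 for mutation 1 and -0.61 for mutation 3 minus mutation 2. Against the wild-type replicates it had 0, 0.34 and 0.33 for mutation 1 and -0.8, -0.34 and -0.31 for mutation 3. The 4 stretches held 3.65% of the 10204 genes placed, and 87 of the genes called and at least 2-fold apart. Whether copy number differed between the cultures was not tested.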
